A study of Mus musculus with 7 samples.

Results

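Runx3 binding at promoters that carry the enhancer mark H3K4me1 was examined in resting CD8-positive T cells (CD8-TC) of mouse spleen. The regions were chosen by 3 conditions: a called Runx3-bound region, at least 1 bp shared with a called H3K4me1-marked region, and a midpoint under 1 kb from the nearest transcription start site (TSS) of any annotated transcript. These conditions were met by 905 of 4934 Runx3-bound regions (18.3%), which are 23.3% of the 3889 Runx3-bound regions with H3K4me1 and 88.6% of the 1022 regions under 1 kb from a TSS. They are called marked promoter regions here. Because the calls themselves and the distance chose them, their overlap with H3K4me1 and their closeness to a TSS are a description and were not tested.

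CD8-TC came from spleens of wild-type (WT) ICR mice, with 18 mice given for each library. The cells were separated with magnetic beads carrying anti-CD8, and their fixed chromatin was used for immunoprecipitation. Runx3 antiserum gave 3 libraries from 2 repeats, an antibody against monomethylated lysine 4 of histone H3 (H3K4me1) gave 2 libraries, and non-immune rabbit serum (NIS), the control for both, gave 2 libraries. The repeats of an antibody were joined before regions were called, so that 1 list of positions per antibody holds no height, no read count and no spread between repeats. The depth behind a single region is therefore unknown, and the tests below count the regions of 1 pooled list, whose p-values and intervals cover counting error only and not the variation between mice or cultures. The NIS libraries served as the background of either list. H3K4me1 lay under 1 kb from a TSS at 10 of 10 T-cell marker genes, 8 of 8 B-cell, 5 of 6 myeloid, 3 of 3 dendritic-cell, 1 of 4 NK-cell and 1 of 4 erythroid marker genes. Over all protein-coding genes the share with H3K4me1 there was 58.4%. A marked promoter region lay at 1 of the T-cell markers (Lck) and at none of the markers of the other cell types. Beside the 4.03% of all protein-coding genes, so few markers do not separate the cell types. The part of other spleen cells in the H3K4me1 calls was not tested.

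Runx3 is a DNA-binding factor of the Runt family that works with the partner protein Cbfb and recognises a short sequence, the RUNX motif. It represses Cd4 and supports the cytotoxic program in CD8-TC. H3K4me1 is found at enhancers and on the shoulders of active promoters, whose centre carries trimethylated lysine 4 in its place. Promoters of mammals fall into CpG-rich ones, typical of genes that are active in most cells, and CpG-poor ones, which more often serve cell-type-specific genes. Members of the ETS family, such as Ets1, bind next to Runx proteins at many T-cell genes.

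The RUNX motif was searched on both strands as 4 variants, namely TGTGGT (variant 1), TGTGGC (variant 2), TGCGGT (variant 3) and TGCGGC (variant 4), of which variants 3 and 4 contain a CpG. The 200 bp around the midpoint are printed below for some of the regions that lead the lists of T-cell genes in the number of RUNX matches and for the 3 regions with the most matches of all whose window held no exon of a protein-coding gene. Sequences are from NCBIM37 (mm9), run 5′ to 3′ along the strand of the named gene, and have RUNX matches in capitals (a match on the opposite strand reads as the reverse complement, so that TGTGGT appears as ACCACA). A match is a description of the letters in the window and not a measured binding site.

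Runx3 itself held 3 matches, all on the opposite strand, in the plus-strand window chr4:134676287-134676486. Its midpoint lay 180 bp upstream of the 5′-most annotated TSS of the gene. Ubash3a, a negative regulator of T-cell receptor (TCR) signalling, held 2 matches at chr17:31344305-31344504 on the plus strand, 413 bp upstream of its TSS.
Runx3: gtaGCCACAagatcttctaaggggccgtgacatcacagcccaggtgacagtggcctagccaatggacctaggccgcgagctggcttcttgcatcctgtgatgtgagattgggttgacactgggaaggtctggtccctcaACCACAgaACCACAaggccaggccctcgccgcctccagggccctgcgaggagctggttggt
Ubash3a: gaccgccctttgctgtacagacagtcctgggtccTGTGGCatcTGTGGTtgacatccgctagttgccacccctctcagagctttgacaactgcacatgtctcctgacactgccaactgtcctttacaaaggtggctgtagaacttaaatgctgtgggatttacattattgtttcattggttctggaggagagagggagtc

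Nfkb2, the precursor of the p52 subunit of NF-kappaB, held 2 matches of the variants with a CpG, 1 on each strand, at chr19:46378679-46378878, printed along the plus strand. Il2rb, the beta chain of the IL-2 and IL-15 receptors, held 2 TGTGGT matches, both on the strand opposite to the gene, in the window chr15:78325633-78325832, printed along the minus strand. Nkg7, a protein of cytotoxic granules, held 2 matches at chr7:50692143-50692342 and Prf1, which encodes perforin, held 1 at chr10:60760338-60760537, all on the strand opposite to the gene in windows printed along the plus strand.
Nfkb2: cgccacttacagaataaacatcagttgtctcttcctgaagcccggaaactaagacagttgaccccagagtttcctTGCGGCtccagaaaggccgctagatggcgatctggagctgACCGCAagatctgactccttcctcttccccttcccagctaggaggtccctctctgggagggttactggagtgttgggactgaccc
Il2rb: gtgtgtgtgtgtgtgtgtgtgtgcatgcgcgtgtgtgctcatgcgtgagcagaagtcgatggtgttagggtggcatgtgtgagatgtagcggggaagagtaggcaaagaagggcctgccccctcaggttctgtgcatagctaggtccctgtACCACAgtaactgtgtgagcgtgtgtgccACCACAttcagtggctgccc
Nkg7: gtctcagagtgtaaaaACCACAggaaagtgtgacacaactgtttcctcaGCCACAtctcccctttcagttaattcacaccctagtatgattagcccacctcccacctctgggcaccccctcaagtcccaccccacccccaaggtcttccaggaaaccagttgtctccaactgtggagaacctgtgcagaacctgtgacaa
Prf1: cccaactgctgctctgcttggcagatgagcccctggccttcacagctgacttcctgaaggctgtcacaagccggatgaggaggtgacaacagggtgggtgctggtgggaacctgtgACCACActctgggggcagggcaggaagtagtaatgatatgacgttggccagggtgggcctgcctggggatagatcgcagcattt

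Calr, which encodes calreticulin of the MHC class I loading complex, held 1 match, on the strand opposite to the gene, in the window chr8:87370858-87371057, printed along the minus strand. Kcnn4, a calcium-activated potassium channel of lymphocytes, and Mon1b, a component of the endosomal Mon1-Ccz1 complex, held 5 matches each, the highest number among the 905 regions, at chr7:25154949-25155148 and chr8:116159568-116159767, printed along the plus strand, with 4 of the 5 on that strand in each. Shisa5, the widest marked promoter region, held 4 at chr9:108954318-108954517, all on the plus strand. In the Mon1b window a TGTGGT and a TGCGGC match shared bases, and 4 ETS matches lay in the same 200 bp.
Calr: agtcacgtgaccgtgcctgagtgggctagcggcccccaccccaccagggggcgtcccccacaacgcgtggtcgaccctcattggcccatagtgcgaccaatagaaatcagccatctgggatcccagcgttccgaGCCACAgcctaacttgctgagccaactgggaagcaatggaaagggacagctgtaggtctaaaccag
Kcnn4: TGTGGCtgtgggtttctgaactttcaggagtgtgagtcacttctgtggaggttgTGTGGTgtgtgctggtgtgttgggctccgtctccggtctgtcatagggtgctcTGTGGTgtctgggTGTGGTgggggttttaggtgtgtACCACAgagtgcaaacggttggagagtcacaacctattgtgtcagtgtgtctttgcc
Mon1b: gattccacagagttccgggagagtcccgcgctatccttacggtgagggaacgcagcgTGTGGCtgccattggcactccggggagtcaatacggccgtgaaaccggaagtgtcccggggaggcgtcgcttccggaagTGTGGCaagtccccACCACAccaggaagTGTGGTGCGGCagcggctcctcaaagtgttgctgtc
Shisa5: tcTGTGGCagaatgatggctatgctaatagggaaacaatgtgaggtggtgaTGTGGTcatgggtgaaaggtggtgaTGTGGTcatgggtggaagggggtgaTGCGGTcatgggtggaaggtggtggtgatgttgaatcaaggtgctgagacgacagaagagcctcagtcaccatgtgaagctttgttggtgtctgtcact

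The marked promoter regions had a median width of 853 bp (95% order-statistic interval 835 to 873 bp, n = 905) and ranged from 360 to 2642 bp. Their midpoints lay at a median of 54 bp upstream of the TSS (-54 bp, interval -71 to -38 bp), and the middle of the distribution ran from -203 to 47 bp (quartiles). The midpoint was within 200 bp of the TSS in 534 regions (59.0%), and the TSS lay inside the called region in 716 (79.1%). Of the midpoints, 351 were intergenic, 273 in an intron, 243 in an exon outside coding sequence and 38 in a coding exon. At the distance limit the last regions inside lay near Tra2a (985 bp), Plec (988 bp) and Slfn8 (996 bp), and the first marked regions outside near Dusp2 (1000 bp), Polr3e (1009 bp) and 1700041G16Rik (1012 bp).

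More midpoints lay upstream than downstream of the TSS. Among the 759 regions whose nearest TSS had no TSS on the other strand within 1000 bp, so that upstream and downstream are defined, 483 midpoints lay upstream and 271 downstream, and 5 lay on the TSS. The upstream share, without the 5 on the TSS, was 64.1%, which is a description with no test, since nearness to the TSS and contact with H3K4me1 chose the regions. The median position was -111 bp (interval -152 to -70 bp) for the 258 regions at a CpG-rich TSS and -31 bp (-52 to -14 bp) for the other 647. A TSS was called CpG-rich where the 1001 bp around it had a GC content of at least 0.55 and a ratio of observed to expected CpG of at least 0.75.

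**Figure D1:**
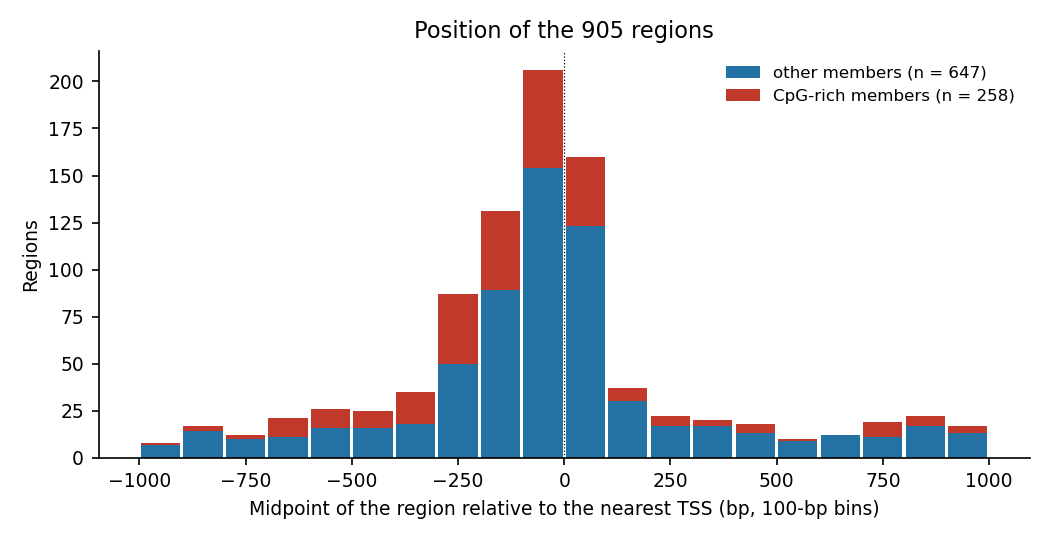
Positions of the midpoints of the 905 marked promoter regions relative to the nearest TSS in the direction of transcription, as the number of regions per 100-bp bin, stacked for the 647 other and the 258 CpG-rich regions. The bin just upstream of the TSS held the most regions (206) and the bin just downstream 160, while no bin beyond 100 bp downstream held more than 37.

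H3K4me1 lay in 3 arrangements around the bound site. In 479 regions (52.9%, Wilson interval 49.7 to 56.2%) the midpoint itself was inside an H3K4me1-marked region, whose median width was 2023 bp (1848 to 2261 bp). In 321 (35.5%, 32.4 to 38.6%) the midpoint was in an unmarked gap with H3K4me1 within 1000 bp on both sides. The gap had a median length of 665 bp (624 to 715 bp) and ranged from 72 to 1452 bp. In the remaining 105 (11.6%, 9.68 to 13.9%) H3K4me1 lay within 1000 bp on 1 side only. Of the bases of a region, the median marked share was 58.6% (quartiles 35.0 and 98.4%), and 220 regions were marked over their whole length.

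Marked Runx3-bound regions farther out are set beside these counts as a description, with no test, because overlap and distance chose the sets. At 1 to 5 kb from a TSS the midpoint was marked in 643 of 694 regions (92.7%), against 479 of 905 at promoters. A gap with H3K4me1 on both sides was present in 4.32% of the regions at 1 to 5 kb and in 4.15% of the 2290 marked regions at 5 kb or more. The 117 promoter regions without H3K4me1 were in part flanked as well: 41 had H3K4me1 within 1000 bp on both sides of the midpoint and 46 on 1 side, while 30 had none. The median gap of those 41 was 1114 bp (1022 to 1181 bp), so that "without H3K4me1" refers to the bound region itself and not to its surroundings.

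Around the TSS the marked promoter regions showed a trough between shoulders of H3K4me1. The share of marked bases had its lowest value within 500 bp of the TSS in the 100 bp after it (38.3%), and it peaked at 80.8% between 700 and 600 bp upstream and at 80.2% between 900 and 1000 bp downstream. At 12 of 258 CpG-rich TSSs (4.65%, 2.68 to 7.95%) the TSS base was inside H3K4me1, against 349 of the other 647 (53.9%, 50.1 to 57.7%). These shares carry no test because contact with H3K4me1 chose the regions, and the midpoints of the 2 classes lay at different distances from the TSS. The midpoint of the bound region was marked at 88 of the CpG-rich and 391 of the other TSSs. Protein-coding genes with H3K4me1 under 1 kb from a TSS but no Runx3-bound region, measured at their 5′-most TSS, had a trough as well, with 28.3% of bases marked after the TSS and shoulders of 63.7 and 69.3%.

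Which side of the TSS carried more H3K4me1 depended on the distance taken. Over 2000 bp on each side, 428 of the 759 regions with a defined direction had more marked bases downstream and 288 more upstream, while 43 had equal numbers (59.8% downstream with those left out). The medians were 1403 marked bases downstream (1345 to 1437) and 1185 upstream (1120 to 1266). Over 1000 bp the order was the opposite, with 36.6% of regions having more marked bases downstream, ties left out. These shares are a description, since a region entered only where H3K4me1 touched it and most midpoints lay upstream. In the profile the upstream shoulder peaked nearer to the TSS than the downstream one.

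**Figure D2:**
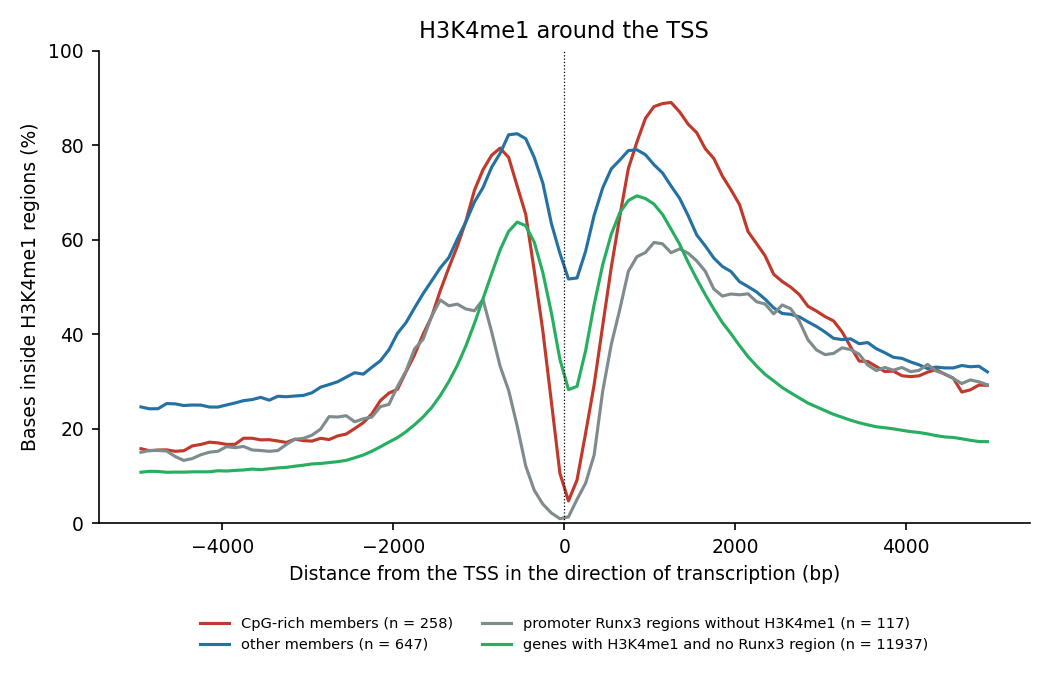
Share of bases inside H3K4me1-marked regions (%) in 100-bp bins from 5000 bp upstream to 5000 bp downstream of the TSS, for marked promoter regions with a CpG-rich TSS, the other marked promoter regions, promoter Runx3-bound regions without H3K4me1, and protein-coding genes with H3K4me1 but no Runx3-bound region (5′-most TSS). CpG-rich regions fall to 4.71% after the TSS and rise to 89.1% between 1200 and 1300 bp downstream, while the other marked promoter regions fall only to 51.7%.

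A RUNX motif was found in the central 200 bp of 643 marked promoter regions (71.0%) and somewhere in 859 (94.9%). In 200-bp windows 5 kb to either side of the same midpoints the share was 26.5% (479 of 1810 windows), and it was 36.7% in the 200 bp around the 5′-most TSS of all 22350 protein-coding genes. In the central window 262 regions held no match, 382 held 1, 208 held 2, 45 held 3, 6 held 4 and 2 held 5. An ETS match (AGGAA or, with a CpG, CGGAA, each followed by A or G, on both strands) was present in 610 (67.4%), against 42.6% of windows 5 kb away and 51.9% of protein-coding TSSs. RUNX and ETS matches occurred together in 431 regions (47.6%), and 83 (9.17%) held neither.

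TGTGGT was the most frequent variant at marked promoter regions, with 330 of 905 central windows (36.5%), followed by TGCGGT (22.2%), TGTGGC (189, 20.9%) and TGCGGC (122, 13.5%). In windows 5 kb away these shares were 15.0, 1.33, 11.2 and 1.55%, and at the TSS of all protein-coding genes 10.1, 5.57, 13.2 and 13.3%. TGTGGT and TGCGGT were concentrated at the midpoint. TGTGGT had 22.2 and 23.3 matches per 100 regions in the 100 bp before and after the midpoint, and between 4.53 and 8.18 per 100-bp bin beyond 200 bp. TGCGGT fell from 11.2 and 13.4 to between 1.77 and 4.53 over the same distances. TGCGGC was spread more evenly downstream, with 9.06 matches in the first 100 bp after the midpoint and 7.29 between 300 and 400 bp. The GC box GGGCGG, which Sp1 binds, was not centred on the midpoint and was denser 100 to 200 bp downstream (21.3 per 100 regions) than just before the midpoint (16.4).

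**Figure D3:**
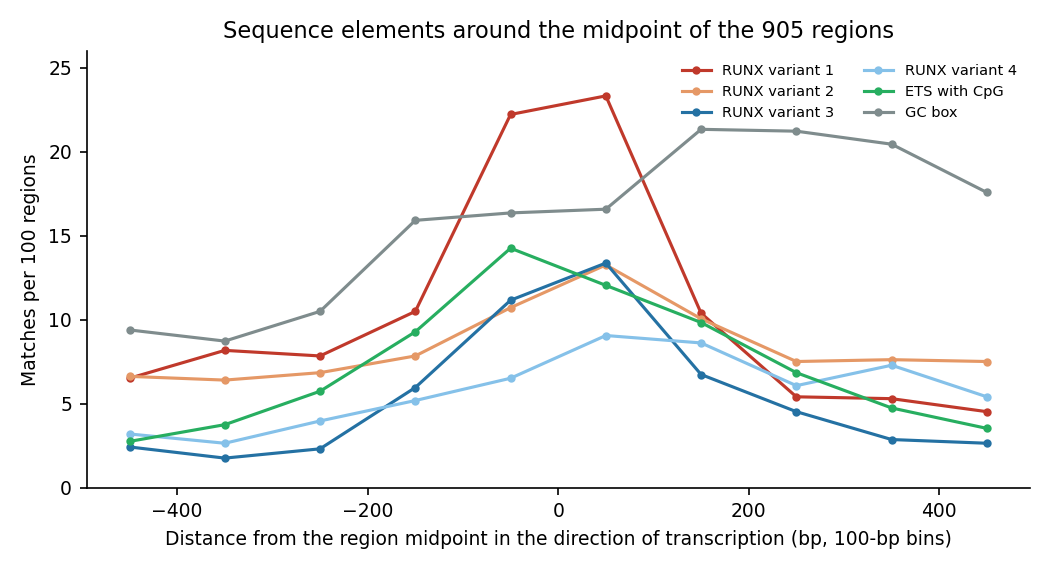
Matches per 100 marked promoter regions in 100-bp bins from 500 bp upstream to 500 bp downstream of the region midpoint, in the direction of the nearest transcript, for the RUNX variants 1 to 4 (variants 3 and 4 contain a CpG), the ETS form with a CpG (CCGGAA) and the GC box. Variant 1 reaches 23.3 at the midpoint, and the GC box is highest downstream of it.

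Marked promoter regions held RUNX motifs more often than promoter regions without H3K4me1. The share was 71.0% against 51.3% of 117 (odds ratio 2.33, 95% interval 1.58 to 3.44; two-sided Fisher's exact test, adjusted p = 0.000118 over 36 tests, 18 elements in 2 comparisons). Of the 4 variants TGTGGT alone passed, with 36.5% against 14.5% (odds ratio 3.38, 1.98 to 5.75, exact test, adjusted p = 4.05e-06). TGCGGT was at 22.2% in both sets (odds ratio 0.999, 0.629 to 1.59) and TGCGGC at 13.5 and 12.8% (1.06, 0.596 to 1.88). In windows 5 kb away the TGTGGT share was 15.0% in the marked set (272 of 1810 windows) and 16.7% in the unmarked set (39 of 234). Of the 18 elements 3 passed the test (10 where only regions with a marked midpoint were taken as marked). The third was a STAT motif, TTCNNNGAA, at 5.30% against 12.0% (exact test, adjusted p = 0.0292), which missed the threshold under each of the 4 alternatives tried. The ETS form CCGGAA (20.6 against 29.9%, adjusted p = 0.0530) and the GC box (24.5 against 34.2%, adjusted p = 0.0667) missed it as well, and so did the share of CpG-rich TSSs (28.5 against 37.6%, odds ratio 0.662, 0.443 to 0.988; two-sided Fisher's exact test, p = 0.0521). With protein-coding TSSs the CpG-rich share did pass (odds ratio 0.640, two-sided Fisher's exact test, p = 0.0446). The 117 regions without H3K4me1 limit the precision of this comparison, and their median width was 749 bp (713 to 802 bp).

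Against marked Runx3-bound regions at 1 to 5 kb from a TSS, marked promoter regions held RUNX motifs less often and the variants in other proportions. The share of any variant was 71.0 against 79.0% (odds ratio 0.654, 0.518 to 0.825; two-sided Fisher's exact test, adjusted p = 0.00119), a difference that was not called over the whole region (odds ratio 0.756, adjusted p = 0.436) or where only regions with a marked midpoint were taken as marked (0.779, adjusted p = 0.162). TGTGGT was at 36.5 against 59.2% (odds ratio 0.395, 0.323 to 0.484, exact test, adjusted p = 2.70e-18). The variants with a CpG were higher at promoters, with TGCGGT at 22.2 against 10.4% (2.47, 1.85 to 3.30, exact test, adjusted p = 1.99e-09) and TGCGGC at 13.5 against 4.47% (3.33, 2.22 to 5.01, adjusted p = 2.57e-09). Among the other elements, the GC box (24.5 against 7.49%) and CCGGAA (20.6 against 7.20%) were higher at promoters, and CCAAT (24.0 against 17.6%), the CRE core TGACGT (8.51 against 3.46%) and ATGGCG, the core of the YY1 motif (7.96 against 2.16%), were higher too. TATAAA (4.64 against 8.21%) and the IRF motif (2.43 against 5.04%) were lower. TGTGGC was at 20.9 against 26.1% (exact test, adjusted p = 0.0400), a call that was lost with protein-coding TSSs (odds ratio 0.816, exact test, adjusted p = 0.209), and the CCAAT difference was lost over the whole region (1.06, exact test, adjusted p = 0.715). In all, 12 of 18 elements passed, 7 higher and 5 lower at promoters. Where a marked midpoint was required, 5 passed, namely TGTGGT, the CpG variants, CCGGAA and the GC box, and the other 7 did not. Of those 7 only CCAAT changed direction (odds ratio 0.983). The rest kept theirs without a call, such as CRE (1.67), the YY1 core (2.11), TATAAA (0.613) and IRF (0.575). Base composition moved with this result, since the median GC content was 53.4% (52.9 to 53.9%) for marked promoter regions and 46.8% (46.4 to 47.2%) for those at 1 to 5 kb, and its part in the result was not tested.

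**Figure D4:**
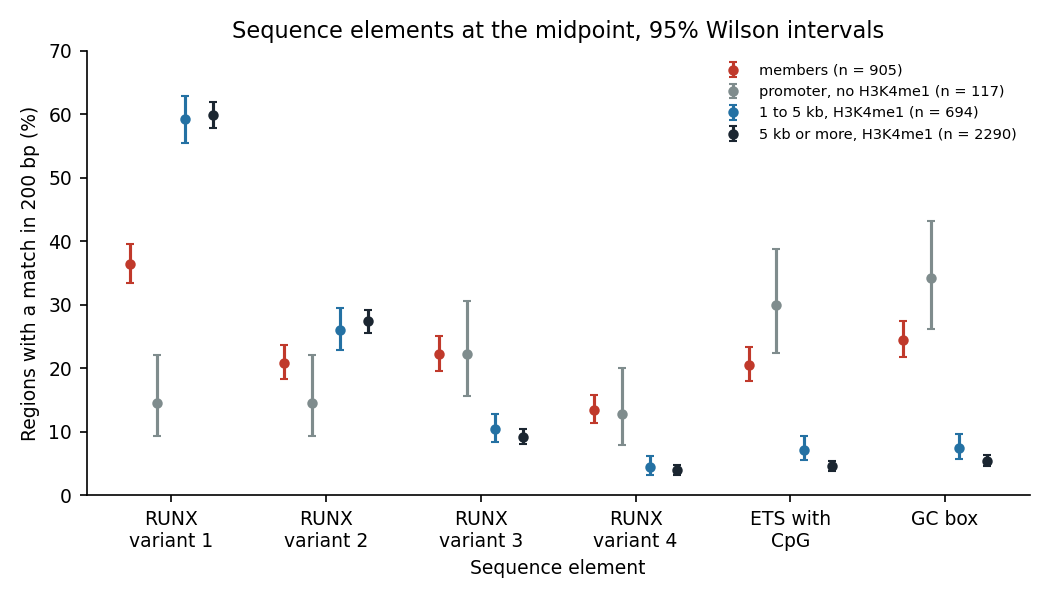
Share of regions (%) with at least 1 match in the 200 bp around the midpoint, with 95% Wilson intervals, in 4 sets of Runx3-bound regions: marked promoter regions, promoter regions without H3K4me1, and marked regions at 1 to 5 kb and at 5 kb or more from a TSS (RUNX variants 3 and 4 contain a CpG, and ETS with CpG is CCGGAA). For variant 1 the marked promoter regions (36.5%) lie between the unmarked promoter regions (14.5%) and the marked regions farther out (59.2 and 59.9%).

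The variants also differed among the marked promoter regions themselves. At CpG-rich TSSs TGTGGT was in 68 of 258 central windows (26.4%) and at the other TSSs in 262 of 647 (40.5%; odds ratio 0.526, 0.383 to 0.723; two-sided Fisher's exact test, adjusted p = 0.000133 over 4 variants). TGCGGT was at 33.3 against 17.8% (2.31, 1.67 to 3.21, exact test, adjusted p = 3.59e-06) and TGCGGC in 51 of 258 against 71 of 647 (2.00, 1.35 to 2.96, adjusted p = 0.00103). TGTGGC did not pass (18.2 against 21.9%, exact test, adjusted p = 0.239), but did where CpG-rich was defined, with a lower limit, on a shorter window around the TSS (odds ratio 0.670, exact test, adjusted p = 0.0168). TGCGGT and TGCGGC contain a CpG, so that the definition of the 2 classes and these variants share base composition.

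The arrangement of H3K4me1 separated 5 of 6 elements tested, and TGTGGC did not pass (19.0 against 22.5%, exact test, adjusted p = 0.219). Where the midpoint was unmarked (426 regions), TGTGGT was at 24.9%, against 46.8% of the 479 regions with a marked midpoint (odds ratio 0.377, 0.284 to 0.501; two-sided Fisher's exact test, adjusted p = 2.77e-11 over 6 elements). Unmarked midpoints held more TGCGGT (26.1 against 18.8%, exact test, adjusted p = 0.0123), TGCGGC (20.2 against 7.52%, adjusted p = 4.38e-08), CCGGAA (29.3 against 12.7%, adjusted p = 1.46e-09) and GC boxes (36.6 against 13.8%, adjusted p = 7.45e-15). CpG-rich TSSs made up 38.9% of the regions in a gap with H3K4me1 on both sides, 42.9% of those with H3K4me1 on 1 side and 18.4% of those with a marked midpoint. All elements that were higher at unmarked midpoints contain a CpG, and TGTGGT does not. The part of base composition in these differences was not tested.

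A marked promoter region lay under 1 kb from a TSS of 901 of the 22350 protein-coding genes (4.03%). Among the 13059 protein-coding genes with H3K4me1 under 1 kb from a TSS the share was 6.89%. The regions were associated with 1 such gene in most cases, 96 regions with 2 or more and 78 with none. At 726 of the 901 genes the region lay within 1 kb of the 5′-most TSS, and 21 genes had more than 1 marked promoter region. Compared at the 5′-most TSS with the 11937 genes that had H3K4me1 but no Runx3-bound region, these 726 genes held a RUNX motif in 399 of 726 against 4570 of 11937 of the 200-bp windows around the TSS (odds ratio 1.97, 1.69 to 2.29; two-sided Fisher's exact test, adjusted p = 5.50e-18 over 8 tests), TGTGGT in 18.0 against 7.10% (adjusted p = 4.28e-20), TGCGGT in 16.4 against 6.66% (adjusted p = 1.25e-17) and CCGGAA in 29.8 against 21.9% (adjusted p = 3.43e-06). The GC box was less frequent, with 47.5 against 57.7% (0.665, 0.572 to 0.773, exact test, adjusted p = 2.26e-07). TGCGGC did not pass (20.9 against 18.2%, exact test, adjusted p = 0.0674). CpG-rich TSSs were at 35.7% of the 901 genes and 39.2% of the others (odds ratio 0.862, 0.748 to 0.992; exact test, adjusted p = 0.0532). The 726 genes had their region at the 5′-most TSS, whereas the 11937 genes needed H3K4me1 near any of their TSSs. The sets therefore differ in how the TSS was chosen, and the part of this in the differences was not tested. Genes that share a region are not independent in these tests.

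A protein-coding TSS of another gene lay on the opposite strand within 1000 bp, a divergent arrangement, at 202 of the 901 genes (22.4%) and at 2233 of the 11937 genes with H3K4me1 and no Runx3-bound region (18.7%). A region between divergent TSSs counts for both genes, so that the genes are not independent and the difference is given with no test.

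Genes of T-cell receptor signalling had the highest share of marked promoter regions among the lists examined, with an interval that overlapped those of the other lists of T-cell genes. They were found at 11 of 40 genes (27.5%, Wilson interval 16.1 to 42.8%), beside 4.03% of all protein-coding genes and 6.89% of those with H3K4me1. Of the kinases, Lck, which phosphorylates the CD3 chains and is transcribed from a proximal and a distal promoter, had a region at each of 2 TSSs, at chr4:129235247-129236293 and chr4:129250648-129251244, both marked over their whole length. Txk (chr5:73143411-73144558), a Tec-family kinase, had 1 region with no RUNX match in the central 200 bp. The adaptors Lat (chr7:133512672-133513569), on which the signalling complex assembles, and Sla, which lowers TCR levels, were wholly marked, with 1 TGTGGT each. The costimulatory receptors Cd28 (chr1:60802680-60803522) and Icos (chr1:61034169-61035019), both on chromosome 1, held 1 TGTGGT each, with the midpoint 177 bp upstream of a TSS for Icos. The phosphatase Ptpn22 held 3 TGTGGT matches, 75 bp upstream of an internal TSS. Ubash3a had 2 regions, of which the other, at chr17:31344727-31345177, was wholly marked and held no RUNX match, and Themis and Bcl10, which links the TCR to NF-kappaB, had 1 each. The midpoint was marked in 9 of these 11 and the TSS was CpG-rich in 1, beside 52.9 and 28.5% of all 905 regions.

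Transcription factors of T cells had regions at 11 of 76 genes (14.5%, 8.28 to 24.1%), beside 4.03% of all protein-coding genes and 6.89% of those with H3K4me1. Runx3 and Runx1 were both among them. The Runx3 region (chr4:134675758-134677015) held 2 TGTGGT and 1 TGTGGC, and the Runx1 region (chr16:92825755-92826843) lay with its midpoint 12 bp downstream of the 5′-most TSS and held 2 TGTGGT. Of the factors that transmit cytokine signals, Irf9, which acts in interferon signalling, held 1 TGTGGC, and Stat3 held no RUNX match. Nfkb2 held 1 TGCGGT and 1 TGCGGC. Batf, an AP-1 factor of effector cells, held 1 TGTGGT, while Jund, Tcf3, Nfatc1 and Nfatc2 held none in the central 200 bp. The midpoint was marked in 4 of 11, beside 52.9% of all 905 regions.

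Cytokine receptors were represented by 5 of 34 genes of receptors, Jak kinases and Socs inhibitors (14.7%, 6.45 to 30.1%), with an interval that held the 6.89% of genes with H3K4me1. All 5 were receptor chains with a marked midpoint and a RUNX match, beside 52.9 and 71.0% of all 905 regions. They were Il7r, needed for survival of resting T cells (chr15:9459130-9460058, wholly marked, 1 TGTGGT), Il2rb (chr15:78325334-78326132), Il2ra, the alpha chain of the IL-2 receptor (chr2:11564057-11564767, 1 TGCGGT), Il12rb2 (chr6:67289280-67290165) and Il18r1 (chr1:40522120-40522898). No region lay at a Jak or Socs gene. Homing and adhesion genes had regions at 7 of 31 (22.6%, 11.4 to 39.8%), beside the same 6.89%. Ccr7, the receptor that guides cells into lymph nodes, had a region 63 bp upstream of its TSS with 2 RUNX matches but only 9.58% of its bases marked. S1pr1, needed for exit from lymph nodes, the selectin ligand Selplg and the integrin ligand Icam2 were wholly marked with a TGTGGT each. The integrin chain Itgb7 and the regulators of the actin skeleton Coro1a and Dock2 held no match.

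Cytotoxic effectors, cytokines and NK receptors had regions at 3 of 35 genes (8.57%, 2.96 to 22.4%), with an interval that held the 4.03% of all protein-coding genes and the 6.89% of those with H3K4me1. These were Prf1 (chr10:60759959-60760916, wholly marked), Nkg7 (chr7:50691764-50692722) and Srgn, the proteoglycan of secretory granules. MHC class I presentation had 3 of 20 (15.0%, 5.24 to 36.0%), Calr, H2-M3 and H2-D1, of which the H2 genes have close copies to which reads may not be assigned uniquely. Gimap5, a GTPase that lymphocytes need for survival, was 1 of 8 Gimap genes, and Birc3, an inhibitor of apoptosis, 1 of 28 genes of cell death and survival (3.57%). Chromatin regulators had 5 of 49 (10.2%), Arid1a, Rad21, Kdm5a, Kdm5c and Hdac4, of which only Hdac4 held a RUNX match in its central window. The intervals of these lists held 6.89% as well.

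Marked promoter regions at genes used by most cells were counted beside the 4.03% of all protein-coding genes and the 6.89% of those with H3K4me1. The counts were 7 of 83 cytosolic ribosomal proteins (8.43%), 9 of 73 splicing factors (12.3%), 4 of 57 translation initiation factors (7.02%), 4 of 41 proteasome subunits (9.76%), 8 of 98 genes of the respiratory chain and ATP synthase (8.16%) and 6 of 49 cyclins and cyclin-dependent kinases (12.2%), and the interval of each share held 6.89% (the lowest bound was 2.76% and the highest 24.2%). Among the ribosomal proteins, Rpl30 held a TGCGGT and a TGCGGC with 4.10% of the region marked, and Rpl18 held 2 TGTGGT. Hnrnpl, a splicing regulator of Cd45 in T cells, had 2 regions, both wholly marked and with 2 matches each. Ndufs7, a subunit of complex I, held 3 matches. Cdk4 held 2 and Ccnd3, its cyclin partner in lymphocytes, held none. Zinc finger genes had 16 of 344 (4.65%), replication-dependent histones 2 of 67 (2.99%), which share 1 region, and B-cell genes 1 of 25, the coactivator Pou2af1. None was found at 1087 olfactory receptor, 40 Hox and 21 myeloid genes, of which 11, 20 and 14 had H3K4me1 under 1 kb from a TSS.

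The arrangement of H3K4me1 varied between the lists and is given as counts, with no test, beside the 52.9% of all 905 regions with a marked midpoint. The midpoint was marked at 9 of 11 genes of TCR signalling with a region, 5 of 5 cytokine receptor genes, 4 of 7 homing genes, 4 of 11 transcription factors and 1 of 3 cytotoxic genes. It was marked at 1 of 7 ribosomal protein genes, 3 of 9 splicing factors, 0 of 4 translation initiation factors, 1 of 4 proteasome subunits, 3 of 8 genes of the respiratory chain, 4 of 6 cyclins and Cdks and 10 of 16 zinc finger genes. TGTGGT was present at 7, 4, 4, 3 and 2 of the genes of the former lists and at 4, 4, 0, 2, 2, 2 and 5 of the latter, in the same order. Over all 905 regions the TGTGGT share was 36.5%, and the lists hold few genes with a region.

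**Figure D5:**
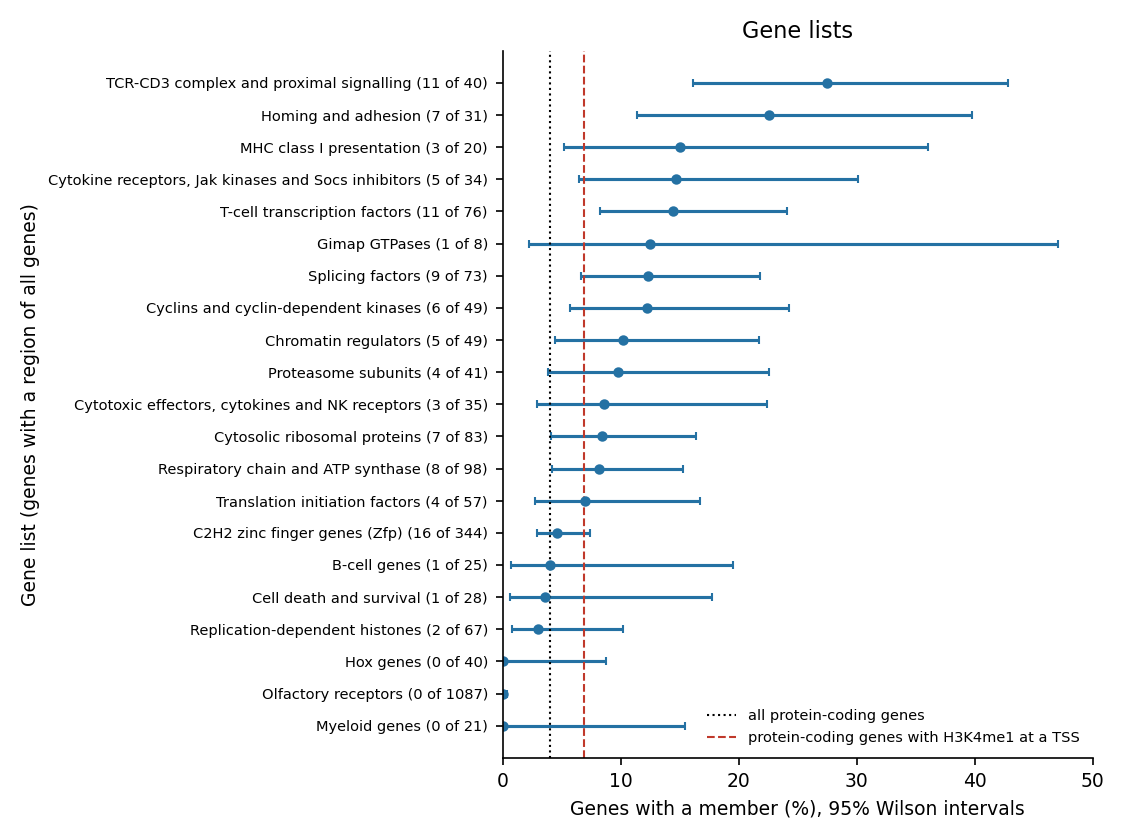
Share of the genes of each list (%) with a marked promoter region under 1 kb from a TSS, with 95% Wilson intervals, beside the share over all protein-coding genes (dotted, 4.03%) and over protein-coding genes with H3K4me1 under 1 kb from a TSS (dashed, 6.89%). The list of TCR signalling is highest at 27.5%, and olfactory receptor, Hox and myeloid genes have none.

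By the number of RUNX matches in the central 200 bp, the leading regions after Kcnn4 and Mon1b were those of Shisa5, Alkbh7, Wdr13, Prrg4, Stra6 and Rere with 4 each, followed by Tspan32 and Fam116a with 3. Kcnn4, Prrg4 and Stra6 were wholly marked, whereas Mon1b (23.2% of bases marked) and Rere (9.72%) were not. Tspan32, a tetraspanin of lymphocytes, had a width of 1396 bp. By width the leading regions were at Shisa5 (2642 bp), BC030307 (1936 bp, shared with Hsp90b1), Lmna (1758 bp), Lnpep (1633 bp), Atf7ip (1611 bp), Dscr3 (1586 bp), Tes (1564 bp), Snrnp70 (1552 bp), 4930422G04Rik (1525 bp, shared with Larp7) and Zfp658 (1517 bp). Of these wide regions, BC030307, Lmna, Tes, Snrnp70, 4930422G04Rik and Zfp658 had no RUNX match in the central 200 bp.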

How the data were processed

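ChIP-seq of Runx3, H3K4me1 and NIS was performed on fixed CD8-TC chromatin sheared to about 300 bp, with reads of 40 to 42 bp. The submitters' processing notes name CASAVA 1.6 and 1.7. The authors aligned the reads to mm9 with ELAND, kept unique alignments, joined the repeats and called peaks with MACS against NIS. The deposited positions, in base pairs of mm9, are all that each list holds, without a score, signal or count.

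From these, overlaps (at least 1 bp), distances of midpoints to TSSs (GENCODE annotation of NCBIM37), gene entries within 1 kb and motif matches were computed with Python 3.11.15, numpy 2.4.6, scipy 1.17.1, pandas 2.3.3 and matplotlib 3.10.9. Positions are printed 1-based. Functions were tested on simulated data. Shares were tested with Fisher's exact test (two-sided, threshold 0.05), adjusted by Benjamini-Hochberg where stated. Planned tests of the side of the TSS and of divergent genes are replaced by counts, because the choice of regions bears on them. The members, motifs and gene lists were chosen with earlier results of these data known. The tests by arrangement of H3K4me1 and the TSS comparisons with genes without Runx3 were added after the data were examined. Named genes are up to 6 per list by RUNX matches in 200 bp, then by width, the 10 regions with most matches and the 10 widest, and the 3 regions on either side of the distance limit. Further list members, genes of smaller lists and Lck's regions were named after their values were seen. Windows for printing held no exon of a protein-coding gene. Some items are not reported here.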

Additional observations from a re-analysis of the deposited data

How the results depend on the processing

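No paired analysis was possible because the repeats of each antibody were joined into 1 list before deposit, which also leaves no repeat to omit. Requiring at least 50% of a region to be marked left 542 regions, and requiring a marked midpoint left 479; protein-coding TSSs, a limit of 500 bp, the distance from the nearest edge, autosomes and merged neighbours gave 741 to 1024. With a marked midpoint as the criterion, 10 elements in place of 3 differed between promoter regions with and without H3K4me1, and 5 in place of 12 against regions at 1 to 5 kb. Against those regions the odds ratio of any RUNX variant was 0.756 over the whole region and 0.779 with a marked midpoint, neither called, and that of the CCAAT box turned to 0.983 with a marked midpoint; the cause was not tested. H3K4me1 was heavier downstream in 36.6% of regions over 1000 bp, the opposite of the 2000-bp result. The CpG-rich share of regions with against without H3K4me1 passed with protein-coding TSSs (odds ratio 0.640). That of genes with against without Runx3 was 0.862 (unadjusted p = 0.0399, adjusted p = 0.0532) and 0.859 at genes bound at the 5′-most TSS (unadjusted p = 0.0600), by Fisher's exact test. Of 140 alternative values for 51 results, 116 kept their direction and side of the threshold or stayed within 1.5 times. Regions without read counts limit all comparisons to presence or absence.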

Other observations

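The nearest TSS was not of a protein-coding gene at 106 of the 905 marked promoter regions (11.7%). It belonged to a processed transcript at 37, a lincRNA at 33, a small nuclear RNA at 12, an annotated V segment of an antigen receptor at 8, a small nucleolar RNA at 6 and a miRNA at 3. One of the last was Mir150, a miRNA of mature lymphocytes, with a wholly marked region at chr7:52376467-52377474, 156 bp upstream of the annotated start, with 2 ETS and no RUNX matches in the central 200 bp. Of the 8 V segments, 7 were heavy-chain segments or predicted genes on chromosome 12, and the other was Trbv1, a V segment of the TCR beta chain, on chromosome 6. A RUNX match was present in the central 200 bp of 7 of the 8, beside 71.0% of all 905 regions. Heavy-chain V segments and small nuclear RNA genes have many close copies, to which reads may not be assigned uniquely.

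Another Runx3-bound region lay within 10 kb of 147 marked promoter regions (16.2%) and of 195 of the 694 marked regions at 1 to 5 kb (28.1%). Sema4d, a semaphorin of lymphocytes, was the gene with 3 marked promoter regions, each at a different TSS on chromosome 13. As a share of all marked Runx3-bound regions of a chromosome, the marked promoter regions ranged from 13.6% on chromosome 18 (14 of 103) to 31.8% on chromosome 11 (94 of 296).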
